A study of Mus musculus with 19 samples.

Results

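The genes described here are 33 genes of the integrated stress response and the unfolded protein response, out of 39017 genes in the deposited count table. They were chosen by name as known genes of the pathways, with earlier results of these data known, and all 33 were found in the table by Ensembl identifier. The ATF4 arm holds 15 of them: Atf4, Ddit3, Trib3, Asns, Chac1, Slc7a5, Slc7a11, Slc3a2, Sesn2, Atf3, Atf5, Cebpb, Ppp1r15a, Nupr1 and Vldlr. The endoplasmic reticulum (ER) arm, which is driven by ATF6 and XBP1, holds another 15: Hspa5, Xbp1, Hsp90b1, Dnajb9, Dnajc3, Herpud1, Pdia3, Pdia4, Pdia6, Sdf2l1, Calr, Creld2, Manf, Edem1 and Syvn1. The remaining 3, Atf6, Ern1 and Eif2ak3, encode the sensors that start the response. RNA was sequenced from E0771 cells, a mammary carcinoma line of the C57BL/6 mouse strain that had been marked with the red fluorescent protein mCherry. The labels give 50000 cells per mouse, placed in the mammary fat pad of lean mice on chow or of obese mice on a high-fat diet, and they name C57BL/6 as the strain of every library. Tumors were taken apart with enzymes on day 14 (midpoint) or day 21 (endpoint), and the mCherry-positive cells were sorted. The study compared 4 groups: lean midpoint (4 tumors), obese midpoint (5), lean endpoint (5, of which 4 were used) and obese endpoint (5). All 4 groups carry the same marked cell line, 1 library is 1 tumor, and the age and sex of the mice and the length of the diet were not used here.

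Cells answer a load of unfolded protein in the ER through 3 membrane sensors. PERK, the product of Eif2ak3, phosphorylates the translation factor eIF2, which slows protein synthesis and favors translation of ATF4, a transcription factor that turns on amino acid transporters, asparagine synthetase and regulators such as CHOP (Ddit3) and TRIB3. Other eIF2 kinases reach ATF4 when amino acids or heme run short. ATF6 is released by proteolysis and IRE1 (Ern1) splices the Xbp1 messenger, and both routes raise chaperones, disulfide isomerases and the machinery that removes misfolded proteins. Much of this control acts on protein and splicing, neither of which a gene count records.

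The DNA letters that separate the arms were read from RefSeq promoter windows (build GRCm38.p6), which run from 250 bases before to 50 bases after a transcription start. A window was given for 30 of the 33 genes, and the windows of Slc7a5, Manf and Atf6 were not used here. The motifs, searched on both strands, were the ER stress element (ERSE, CCAAT and CCACG with 9 bases of any kind between them), the UPR element (UPRE, TGACGTGG) and the CEBP-ATF response element (CARE, TGATGNAA). ERSE was present in 7 of the 14 ER arm genes with a window (Calr, Creld2, Dnajc3, Hsp90b1, Hspa5, Pdia6 and Syvn1) and in 0 of the 14 ATF4 arm genes, whereas 0.137% of all 27025 genes with a window held it. CARE was present in 7 of the 14 ATF4 arm genes (Asns, Atf3, Chac1, Nupr1, Slc7a11, Trib3 and Vldlr) and in 1 ER arm gene, Herpud1, against 4.51% of all genes. UPRE was present in 0 of these genes and in 0.714% of all genes, and neither Ern1 nor Eif2ak3 held any of the 3. A match describes the letters alone and is not evidence that a factor binds. The 250 bases before the start are shown for the 2 genes of each arm with the most matches, to let the elements of the 2 arms be compared; ties were settled in favor of Asns and Hspa5 after the matches had been seen. Capitals mark CARE in Slc7a11 and Asns and ERSE in Hsp90b1 and Hspa5, on either strand.
Slc7a11, chr3:50443614-50443863, minus strand: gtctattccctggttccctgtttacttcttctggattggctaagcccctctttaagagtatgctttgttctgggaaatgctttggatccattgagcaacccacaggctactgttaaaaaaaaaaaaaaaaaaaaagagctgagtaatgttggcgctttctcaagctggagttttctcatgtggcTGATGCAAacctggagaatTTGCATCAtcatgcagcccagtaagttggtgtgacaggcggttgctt
Asns, chr6:7693210-7693459, minus strand: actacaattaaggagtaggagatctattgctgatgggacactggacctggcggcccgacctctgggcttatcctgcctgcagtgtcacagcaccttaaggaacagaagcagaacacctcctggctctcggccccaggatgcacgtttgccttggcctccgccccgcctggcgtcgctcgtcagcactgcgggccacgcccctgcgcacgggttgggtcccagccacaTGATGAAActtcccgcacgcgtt
Hsp90b1, chr10:86705445-86705694, minus strand: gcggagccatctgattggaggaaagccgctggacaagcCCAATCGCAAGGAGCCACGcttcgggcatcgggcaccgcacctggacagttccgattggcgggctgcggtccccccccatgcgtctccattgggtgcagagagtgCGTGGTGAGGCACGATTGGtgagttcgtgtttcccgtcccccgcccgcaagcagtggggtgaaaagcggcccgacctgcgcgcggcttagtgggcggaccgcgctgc
Hspa5, chr2:34771840-34772089, plus strand: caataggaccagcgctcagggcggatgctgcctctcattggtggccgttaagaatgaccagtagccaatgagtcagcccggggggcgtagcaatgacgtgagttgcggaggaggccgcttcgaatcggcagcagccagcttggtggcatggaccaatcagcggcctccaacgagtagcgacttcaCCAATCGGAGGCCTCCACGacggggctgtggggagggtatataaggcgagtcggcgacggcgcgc

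Both CARE matches of Slc7a11 read TGATGCAA along the motif and lie on opposite strands, at -66 and -47 from the start, whereas the single match of Asns reads TGATGAAA and lies at -23. The ERSE matches of Hsp90b1 read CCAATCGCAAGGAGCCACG at -212 and, on the other strand, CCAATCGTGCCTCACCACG at -107. Hspa5 holds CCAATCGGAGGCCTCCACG at -65, and Syvn1, a further ER arm gene whose counts are given later, holds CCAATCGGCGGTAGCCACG at -44. In the ATF4 arm, TGATGCAA is also the match of Atf3 (-110), Chac1 (-193), Nupr1 (-110) and Vldlr (-200), and that of Trib3 reads TGATGTAA and lies at 14, past the start.

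The 18 libraries held 44174080 to 56996252 counts each. Lean endpoint tumor 4 was not used, because its 11889188 counts stop partway along chromosome 5. The sorted cells lacked several markers of mammary epithelium, since 7 of 8 averaged under 1 CPM, the count scaled to library size, and Krt18, Epcam and Cdh1 never passed 0.245 CPM, whereas Krt8 ranged from 17.5 to 64.8. Libraries differed in how expression followed the GC content of genes, measured on each gene's log2 CPM minus its mean over the 18 libraries. Per 10 percentage points of GC, this deviation changed by 0.109 to 0.463 in lean midpoint, 0.341 to 1.59 in obese midpoint, -0.93 to -0.062 in lean endpoint and -0.92 to -0.44 in obese endpoint libraries. The steepest slopes belonged to obese midpoint tumors 2 and 3. Mitochondrial transcripts took 10.4 ± 1.41% of counts in lean midpoint (SD, n = 4), 6.96 ± 1.05% in obese midpoint (n = 5), 26.4 ± 12.4% in lean endpoint (n = 4) and 21.9 ± 3.13% in obese endpoint libraries (n = 5). A correction for GC content and length, fitted per library, is given beside the results.

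Of the 33 genes, 32 passed the filter on low counts. Vldlr, a lipoprotein receptor, had 0 to 8 counts and none in 9 of the 18 libraries, and was not tested. Per kilobase of gene, as RPKM over the 18 libraries, the most abundant was Calr, the calcium-binding lectin chaperone calreticulin, at 459 ± 120.4 (SD, n = 18). Next came the disulfide isomerase Pdia4 at 236 ± 47.9, Atf4 itself at 236 ± 44.1 and the ER chaperone Hspa5 (BiP) at 233 ± 124, levels that lie within 1 SD of each other. The transcription factor Ddit3 was low at 7.41 ± 1.28 RPKM, the sensors Atf6, Eif2ak3 and Ern1 stood at 15.5 ± 7.37, 5.89 ± 1.52 and 5.49 ± 0.983, and the lowest tested gene was the cystine transporter Slc7a11 at 1.12 ± 1.07. Levels spread widely for some genes: Hspa5 ran from 41.8 to 418 RPKM and Hsp90b1 from 7.66 to 203, whereas Atf4 stayed between 158 and 337.

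At day 14, tumor cells from obese hosts had more transcript of 3 ATF4 arm genes and less of 4 ER arm genes and 2 sensors than cells from lean hosts. The amino acid transporter Slc7a5 was 2.15-fold higher, the kinase-like regulator Trib3 1.91-fold and the mTORC1 inhibitor Sesn2 1.55-fold. The chaperones and co-chaperones Hspa5, Dnajb9 and Dnajc3, the disulfide isomerase Pdia3 and the sensors Atf6 and Eif2ak3 were lower. Of all 16352 genes tested, the quasi-likelihood test of edgeR (adjusted after Benjamini and Hochberg, threshold 0.05) called 29.5%, with 16.7% higher and 12.8% lower in obese hosts. Of the 14 ATF4 arm genes 3 (21.4%) were higher and 0 lower, and of the 15 ER arm genes 0 were higher and 4 (26.7%) lower. Both totals lie under the 29.5% called over all genes, the ATF4 share of higher calls is near the 16.7% over all genes, and the ER share of lower calls is above the 12.8% over all genes; no test of the lists was made. With GC content and length corrected, 5 of the 9 calls held. The median log2 fold change was 0.42 in the ATF4 arm, -0.25 in the ER arm and -0.72 over the 3 sensors, beside -0.0010 over all tested genes. Groups did not overlap for 2 ATF4 arm genes (Slc7a5 and Trib3), 2 ER arm genes (Dnajb9 and Pdia4) and 1 sensor (Eif2ak3), and over all tested genes 8.04% did not overlap. The calls, though not the directions, rest on few tumors: with lean midpoint tumor 2 or 3, or obese midpoint tumor 2 or 3, left out singly, edgeR called 0 of these genes and 0 of all genes, with 5325 to 5884 genes at an unadjusted p under 0.05. In those fits 0 of the called genes changed direction. Without lean midpoint tumor 2 the log2 fold change was 0.97 for Slc7a5 and -1.07 for Hspa5. Without obese midpoint tumor 2 it was 0.89 and -0.94. In sorted bulk cells, fewer cells with a transcript and less transcript per cell cannot be told apart. Without obese midpoint tumor 1 the calls were 7 in the ATF4 arm and 10 in the ER arm, where 48.8% of all genes were called.

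Slc7a5, the large neutral amino acid transporter LAT1, stood at 278, 199, 229 and 299.6 CPM in the 4 lean midpoint tumors and at 321, 799, 802, 397 and 388 CPM in the 5 obese ones. Every obese tumor was above every lean tumor, and obese tumors 2 and 3 were far above the other 3 (log2 fold change 1.11, SE 0.25, edgeR adjusted p = 0.0304). Trib3, a pseudokinase that ATF4 and CHOP induce, was at 24.9, 20.8, 21.9 and 22.4 CPM in lean and 25.5, 71.1, 58.1, 30.4 and 30.1 CPM in obese tumors. The groups did not overlap, but obese tumor 1 was at the edge of the lean range and tumors 2 and 3 were again highest (log2 fold change 0.94, SE 0.31, edgeR adjusted p = 0.0364). Sesn2, sestrin 2, a leucine sensor that restrains mTORC1, was at 62.7, 38.98, 51.3 and 48.04 CPM in lean and 49.96, 104, 101, 71.1 and 62.1 CPM in obese tumors. Obese tumors 1 and 5 lay inside the lean range and tumors 2 and 3 were highest (log2 fold change 0.63, SE 0.21, edgeR adjusted p = 0.0363). The call for Trib3 was also lost without lean midpoint tumor 1 or 4 (edgeR adjusted p = 0.0594 and 0.0598), and that for Sesn2 without lean midpoint tumor 4 (0.0721).

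Atf4, which encodes the factor itself, was at 421, 321, 403 and 415 CPM in lean and 441, 582, 561, 415 and 441 CPM in obese tumors. Obese tumor 4 fell inside the lean range, tumors 2 and 3 stood highest, and the difference did not pass the test (log2 fold change 0.32, SE 0.16, edgeR adjusted p = 0.117). Asns, asparagine synthetase, was at 582, 479.6, 518 and 575 CPM in lean and 657, 830.0, 743, 580.2 and 645 CPM in obese tumors. Again only obese tumor 4 fell inside the lean range, and the gene was not called (log2 fold change 0.36, SE 0.17, edgeR adjusted p = 0.111). Chac1, which degrades glutathione, was at 9.84, 6.66, 8.62 and 7.29 CPM in lean and 6.53, 18.97, 18.9, 10.3 and 7.87 CPM in obese tumors. Obese tumors 2 and 3 were far above all lean ones, tumors 1 and 5 did not exceed them, and the gene was not called (log2 fold change 0.63, SE 0.31, edgeR adjusted p = 0.12). Ddit3, which encodes the pro-apoptotic factor CHOP, was at 11.8, 11.5, 13.99 and 11.8 CPM in lean and 11.3, 17.1, 12.7, 10.8 and 10.9 CPM in obese tumors. The groups overlapped, with the highest value in obese tumor 2 (log2 fold change 0.029, SE 0.18, edgeR adjusted p = 0.909). Slc3a2, the heavy chain that pairs with both Slc7a5 and Slc7a11, was at 441, 339, 371 and 392 CPM in lean and 414, 749, 595, 452 and 493 CPM in obese tumors. Obese tumors 2 and 3 were highest and the groups overlapped (log2 fold change 0.49, SE 0.20, edgeR adjusted p = 0.0694). Slc7a11, the cystine and glutamate exchanger, was at 2.52, 2.10, 6.45 and 2.87 CPM in lean and 2.98, 3.96, 6.07, 3.31 and 2.44 CPM in obese tumors. Both groups were low and overlapped (log2 fold change 0.10, SE 0.43, edgeR adjusted p = 0.863). Cebpb, a bZIP partner of ATF4, was at 28.5, 21.7, 25.95 and 29.98 CPM in lean and 20.8, 61.3, 49.4, 29.2 and 39.9 CPM in obese tumors. Obese tumors 2 and 3 were highest, and tumor 1 lay below every lean tumor (log2 fold change 0.59, SE 0.29, edgeR adjusted p = 0.116). The remaining tested genes of the arm were not called. The log2 fold change was 0.76 (SE 0.30) for the factor Atf5 and 0.28 (SE 0.14) for the eIF2 phosphatase subunit Ppp1r15a. For the stress protein Nupr1 it was 0.027 (SE 0.17) and for the factor Atf3 -0.22 (SE 0.17). In the direction of the fold change, 13 of the 14 tested genes of the arm were above 0 and Atf3 was below it.

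**Figure D1:**
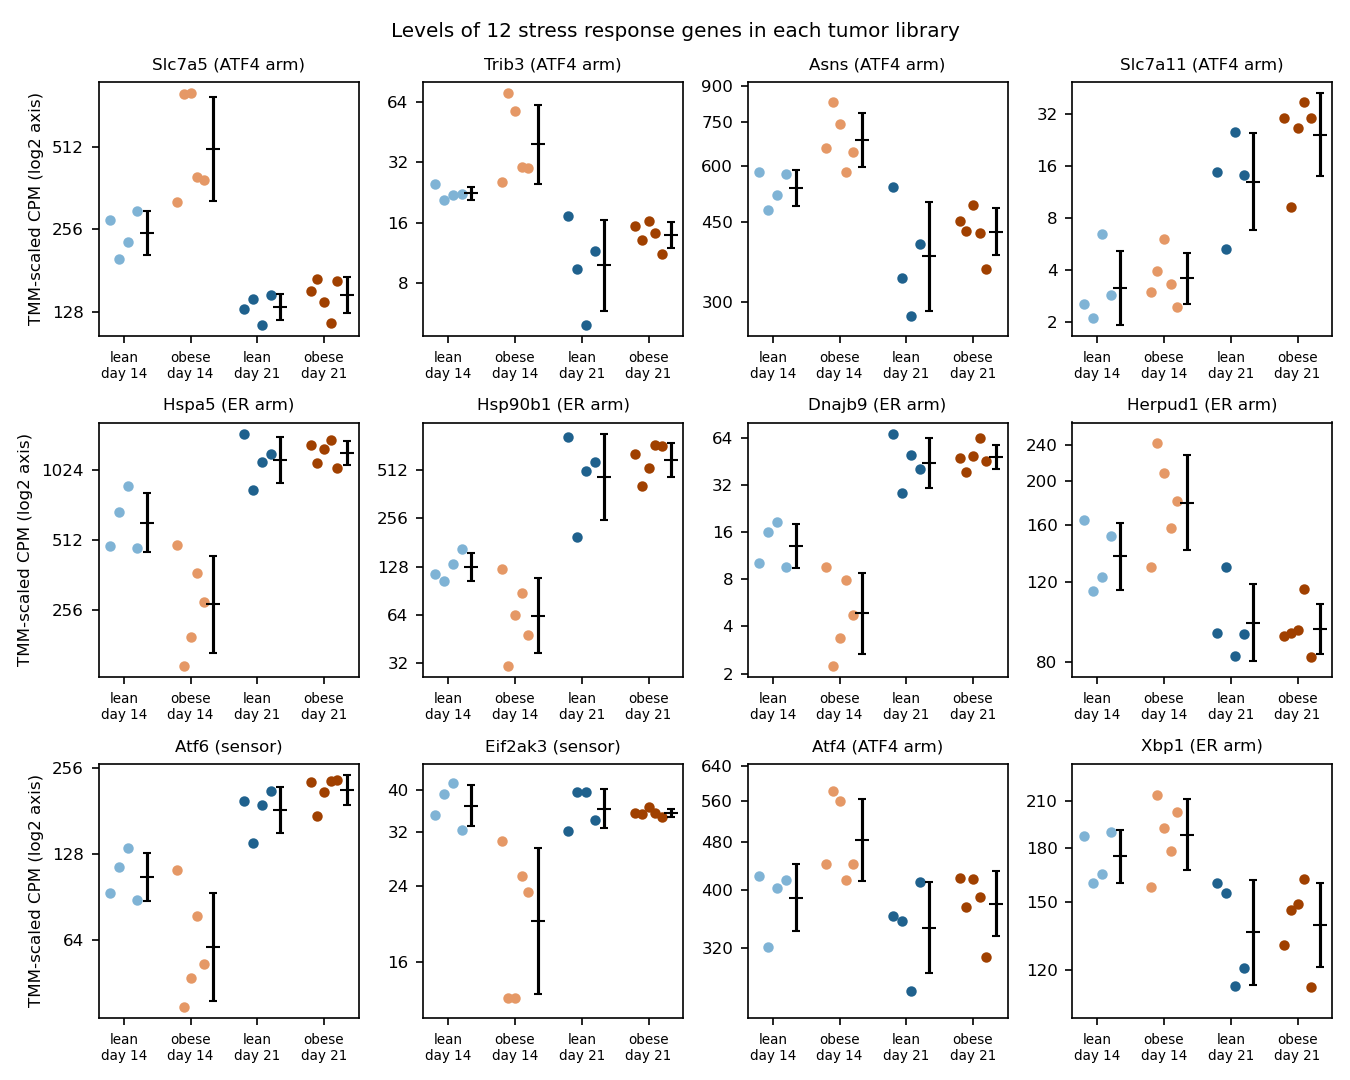
Levels of 12 genes in each of 18 libraries, as TMM-scaled CPM on a log2 axis, by host and day. Points are tumors in replicate order, and the bar beside each group is the mean ± SD of log2 CPM (n = 4 or 5). At day 14, 2 of the 5 obese tumors stand apart in several panels, for example at 799 and 802 CPM of Slc7a5, and at day 21 lean and obese tumors overlap in every panel.

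In the ER arm, Hspa5, the abundant chaperone BiP that also holds the sensors inactive, stood at 485, 679, 877 and 473 CPM in the lean midpoint and 489, 147, 196, 369.8 and 276 CPM in the obese midpoint tumors. Obese tumors 2 and 3 were lowest, while obese tumor 1 lay inside the lean range (log2 fold change -1.09, SE 0.28, edgeR adjusted p = 0.0304). Dnajb9, an ER J-protein that works with BiP, was at 10.1, 16.01, 18.4 and 9.60 CPM in lean and 9.54, 2.25, 3.39, 7.87 and 4.71 CPM in obese tumors. All 5 obese tumors lay below the 4 lean ones (log2 fold change -1.28, SE 0.34, edgeR adjusted p = 0.0304). Dnajc3, the J-protein P58IPK, which also inhibits eIF2 kinases, was at 30.3, 43.9, 42.4 and 30.98 CPM in lean and 36.3, 8.20, 13.5, 23.6 and 14.6 CPM in obese tumors. Obese tumor 1 alone fell inside the lean range (log2 fold change -0.94, SE 0.32, edgeR adjusted p = 0.0371). Pdia3, a disulfide isomerase of glycoprotein folding, was at 232, 359, 395 and 219.8 CPM in lean and 232, 54.3, 87.7, 198 and 133 CPM in obese tumors. Obese tumor 1 was the single one in the lean range, and tumors 2 and 3 were lowest (log2 fold change -1.10, SE 0.31, edgeR adjusted p = 0.0304). The call for Dnajc3 was also lost without obese midpoint tumor 5 (edgeR adjusted p = 0.0731).

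Hsp90b1, the chaperone GRP94, was at 115, 103, 133 and 164 CPM in lean and 124, 30.9, 63.6, 87.8 and 47.7 CPM in obese tumors. Obese tumor 1 lay among the lean ones and the other 4 below them, but the difference did not pass the test (log2 fold change -0.86, SE 0.35, edgeR adjusted p = 0.0664). Other members of the arm lay on the opposite side of 0. Xbp1, which encodes the factor that drives the arm, was at 187, 160.0, 165 and 189.6 CPM in lean and 158, 214, 192, 178 and 203 CPM in obese tumors. Here the groups overlapped (log2 fold change 0.11, SE 0.15, edgeR adjusted p = 0.585). Herpud1, a membrane protein of ER-associated degradation, was at 164, 115, 123 and 151 CPM in lean and 129, 242, 208, 157 and 180.2 CPM in obese tumors. Obese tumors 2 and 3 were highest, and the gene was not called (log2 fold change 0.41, SE 0.19, edgeR adjusted p = 0.1). Syvn1, the ubiquitin ligase HRD1 of the same degradation route, was at 48.9, 32.2, 41.7 and 49.1 CPM in lean and 43.8, 86.5, 84.9, 62.3 and 57.8 CPM in obese tumors. Obese tumors 2 and 3 were highest, without a call (log2 fold change 0.64, SE 0.27, edgeR adjusted p = 0.0703). Creld2, a secreted ER stress protein, was at 46.4, 39.3, 39.6 and 49.7 CPM in lean and 46.4, 79.2, 71.1, 49.9 and 51.6 CPM in obese tumors. As for Syvn1, the 2 highest values were those of obese tumors 2 and 3, without a call (log2 fold change 0.45, SE 0.19, edgeR adjusted p = 0.0815). Among the rest, which were not called, the log2 fold change of Pdia4 was -0.45 (SE 0.19), and its 5 obese tumors all lay below the 4 lean ones. It was -0.39 (SE 0.16) for Edem1, a lectin that sends glycoproteins to degradation, and -0.25 (SE 0.15) for the isomerase Pdia6. It was 0.36 (SE 0.24) for Sdf2l1, a partner of ER J-proteins, 0.29 (SE 0.16) for Manf, a secreted ER survival factor, and -0.028 (SE 0.22) for Calr. The ER arm did not lie on one side of 0, with 6 genes above it and 9 below.

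Of the sensors, Eif2ak3 (PERK) was at 35.1, 39.1, 41.4 and 32.3 CPM in lean and 30.5, 13.2, 13.2, 25.3 and 23.2 CPM in obese midpoint tumors. Every obese tumor lay below every lean one, with tumors 2 and 3 lowest (log2 fold change -0.81, SE 0.21, edgeR adjusted p = 0.0304). Atf6 was at 93.4, 115, 134 and 88.4 CPM in lean and 113, 37.3, 46.9, 77.4 and 52.6 CPM in obese tumors. Obese tumor 1 lay among the lean tumors and the other 4 below them (log2 fold change -0.72, SE 0.25, edgeR adjusted p = 0.0387). The call for Atf6 was also lost without lean midpoint tumor 1 (edgeR adjusted p = 0.05005) and without obese midpoint tumor 5 (0.0783). Ern1 (IRE1) was at 42.8, 36.8, 47.8 and 37.8 CPM in lean and 34.9, 33.4, 46.8, 52.2 and 33.1 CPM in obese tumors. The groups overlapped and the gene was not called (log2 fold change -0.043, SE 0.17, edgeR adjusted p = 0.855).

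The GC content of transcripts moved with these differences: across the 32 tested genes, which are not replicates and share the same libraries, Pearson's r between GC content and log2 fold change was 0.75, beside 0.59 across 16122 tested genes. The ATF4 arm had the higher median GC content, 55.3%, against 49.4% in the ER arm, 52.2% over the sensors and 50.7% over all tested genes. With GC content and length corrected, 12.5% of all genes were called, and 5 of the 9 genes kept their call in the same direction. These were Slc7a5 at 0.70 (edgeR adjusted p = 0.0314), Hspa5 at -0.67 (edgeR adjusted p = 0.0325), Dnajb9 at -0.80 (edgeR adjusted p = 0.0326), Pdia3 at -0.85 (edgeR adjusted p = 0.0342) and Eif2ak3 at -0.79 (edgeR adjusted p = 0.0314). Trib3, Sesn2, Dnajc3 and Atf6 were not called, at 0.26 (edgeR adjusted p = 0.525), 0.14 (edgeR adjusted p = 0.502), -0.29 (edgeR adjusted p = 0.146) and -0.061 (edgeR adjusted p = 0.78). Asns and Manf were called only after the correction, both higher in obese hosts, at 0.62 (edgeR adjusted p = 0.0365) and 0.73 (edgeR adjusted p = 0.0337). The arm medians became 0.040 and 0.063, beside 0.074 over all tested genes.

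Other cells in the sort were checked with marker lists, where 29.5% of all genes were called, 16.7% higher and 12.8% lower. Shares called were 33.3% of macrophage and monocyte, 33.3% of pan-leukocyte and 14.3% of tested plasma and B cell markers. The summed level of 15 macrophage and monocyte markers was 251 to 572 CPM in lean and 186 to 366 CPM in obese midpoint tumors, with 0 genes higher and 5 lower in obese hosts, and that of 9 pan-leukocyte markers was 135 to 259 and 117 to 196 CPM, with 0 higher and 3 lower. None of these markers was at 0 in all 18 libraries, and their part in the differences was not tested. Plasma cells carry a large ER. Of 13 plasma and B cell markers 9 averaged under 1 CPM over the libraries, among them Jchain and Mzb1, which never passed 0.0378 and 0.0645 CPM. Pou2af1 was at 3.01 to 14.02 CPM, Prdm1 at 0.163 to 4.63, Ighm at 0.101 to 2.66 and Sdc1, which makes up most of the sum, at 259 to 1006. The sum was 388 to 559 CPM in lean and 451 to 1017 CPM in obese midpoint tumors, with 1 of the 7 tested markers higher and 0 lower, and its part was not tested. Of 16 immediate early genes, which dissociation can induce, 1 was higher and 3 were lower, so that 25% were called. Their sums were 1621 to 2134 CPM in lean and 1796 to 3158 CPM in obese midpoint tumors, and their part was not tested. Of 7 adipocyte markers 6 averaged under 1 CPM over the libraries and 2 were tested. Of these 2, 1 was higher in obese hosts and 0 were lower, with log2 fold changes of 3.81 and -0.84. The sum of the 7 was 5.45 to 9.66 CPM in lean and 3.87 to 8.29 CPM in obese midpoint tumors. The part of the adipocyte markers was not tested either.

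**Figure D2:**
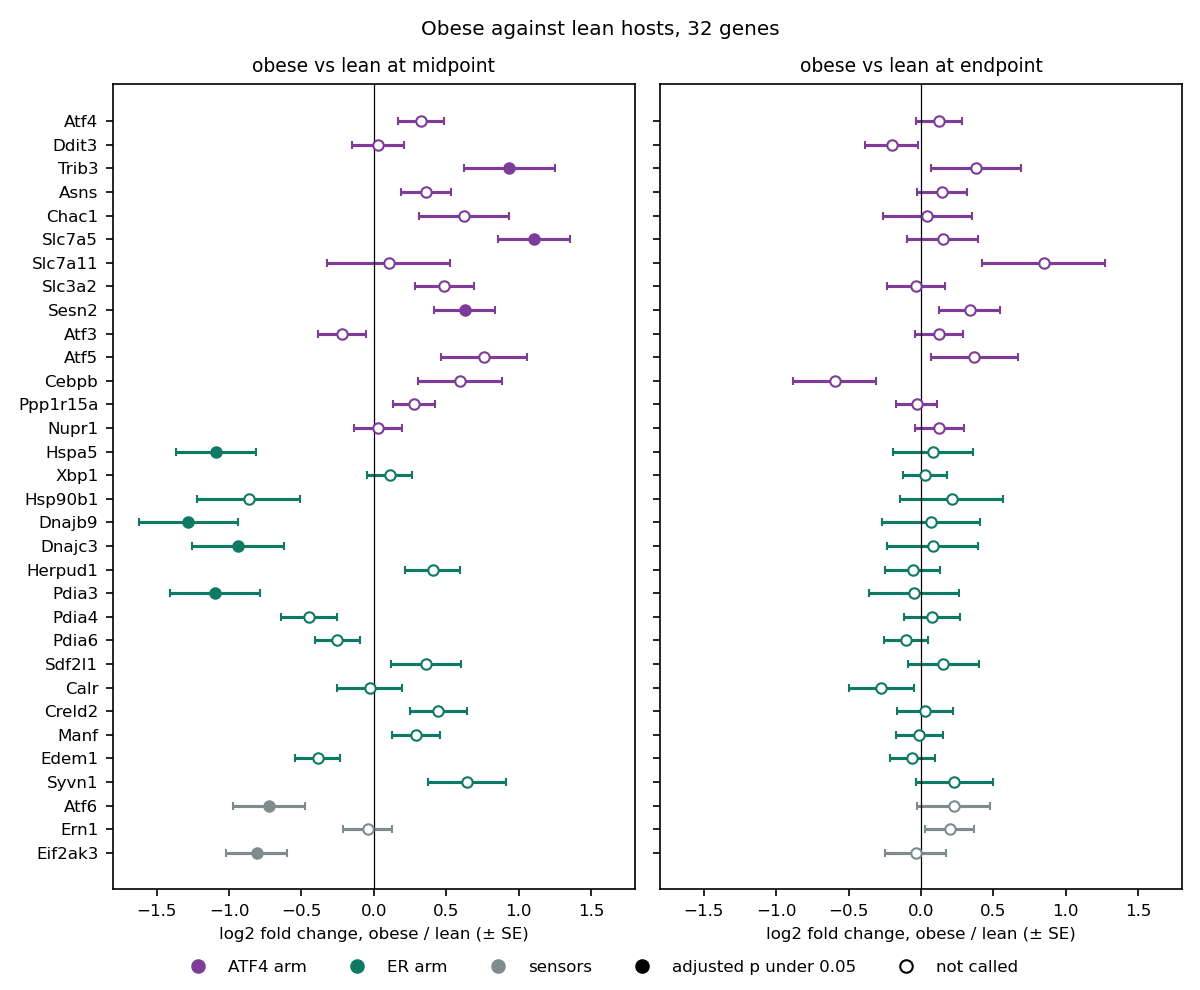
Log2 fold change of obese against lean hosts (horizontal axis, ± SE) for the 32 tested genes at day 14 (left) and day 21 (right), colored by arm; filled points passed an adjusted p of 0.05 in edgeR. At day 14 the 9 filled points are Trib3, Slc7a5 and Sesn2 above 0 and Hspa5, Dnajb9, Dnajc3, Pdia3, Atf6 and Eif2ak3 below it, and at day 21 no point is filled.

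At day 21, no gene of either arm and no sensor was called between obese and lean hosts: edgeR called 0 of 14, 0 of 15 and 0 of 3, and 0 of them had an unadjusted p under 0.05. Of all tested genes, 0.00612% were called, a single gene, and DESeq2 called 13 genes in all (0.0795%) and 0 of these. The median log2 fold change was 0.13 in the ATF4 arm, 0.030 in the ER arm and 0.20 over the sensors, beside -0.0049 over all genes, and the edgeR adjusted p ran from 0.989 to 0.999. Slc7a5 was at 131, 143, 115 and 148 CPM in the 4 lean endpoint tumors and 153, 169, 139, 117 and 167 CPM in the 5 obese ones, and Hspa5 at 1467, 844, 1109 and 1199 and 1322, 1098, 1262, 1377 and 1050.0 CPM. Both genes overlapped between hosts, with log2 fold changes of 0.15 (SE 0.24) and 0.081 (SE 0.28). The estimates farthest from 0 belonged to Slc7a11, at 0.85 (SE 0.42), and Cebpb, at -0.60 (SE 0.29). The groups overlapped for all 32 genes, and over all tested genes 1.97% did not overlap.

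Whether the diet difference itself changed between the days was tested as an interaction, and edgeR called 0 of the 32 genes and 0% of all genes, with 5451 of all genes at an unadjusted p under 0.05. An unadjusted p under 0.05 was reached by 9 of the 32 genes, a smaller share than the 5451 of 16352 over all genes. They were 2 ATF4 arm genes, 5 ER arm genes and 2 sensors. In the ATF4 arm these were Slc7a5, with a difference of log2 fold changes (day 21 minus day 14) of -0.96 (SE 0.34, edgeR adjusted p = 0.101), and Cebpb at -1.19 (SE 0.41, edgeR adjusted p = 0.0988). In the ER arm they were Hspa5 at 1.17 (SE 0.39, edgeR adjusted p = 0.0983), Dnajb9 at 1.35 (SE 0.48, edgeR adjusted p = 0.1), Pdia3 at 1.04 (SE 0.44, edgeR adjusted p = 0.12), Dnajc3 at 1.02 (SE 0.45, edgeR adjusted p = 0.129) and Hsp90b1 at 1.08 (SE 0.50, edgeR adjusted p = 0.142). The sensors among them were Atf6 at 0.95 (SE 0.35, edgeR adjusted p = 0.104) and Eif2ak3 at 0.77 (SE 0.30, edgeR adjusted p = 0.106). DESeq2 called 0 ATF4 arm and 2 ER arm genes for this term, where it called 13.4% of all genes, and limma-voom called 2 and 6, where it called 31.3% of all genes. The diet difference at day 14 is not shown to differ from that at day 21 by the main test.

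Between day 14 and day 21, the ER chaperones Hspa5 and Hsp90b1 and the co-chaperones Dnajb9 and Dnajc3 rose in both hosts, while the chaperone Calr was called in neither. In obese hosts 9 genes of the ATF4 arm fell and Slc7a11 rose, and in the ER arm Xbp1, Herpud1, Syvn1, Creld2, Manf and Sdf2l1 fell. In obese hosts Dnajb9 rose 8.75-fold, Hsp90b1 8.56-fold, Dnajc3 5.74-fold and Hspa5 4.13-fold, and Slc7a5 and Trib3 fell by 1.86 and 1.62 on the log2 scale. By edgeR, 1 ATF4 arm gene rose and 9 fell of 14, 6 ER arm genes rose and 6 fell of 15, and all 3 sensors rose, where 73.9% of all genes were called, 37.8% higher and 36.1% lower. In lean hosts 2 ATF4 arm genes rose and 2 fell, 5 ER arm genes rose and 0 fell, and 1 sensor rose, where 30.9% of all genes were called, 21.4% higher and 9.5% lower. The totals, 10 of 14 and 12 of 15 in obese hosts and 4 of 14 and 5 of 15 in lean hosts, are shares close to those backgrounds, and no test of the lists was made. By direction, the 64.3% of the ATF4 arm that fell in obese hosts stand above the 36.1% over all genes and the 7.14% that rose below the 37.8%, while 40% of the ER arm rose and 40% fell. In lean hosts 33.3% of the ER arm rose, beside 21.4% over all genes. The medians in obese hosts were -0.56 for the ATF4 arm, -0.041 for the ER arm and 0.75 for the sensors, beside -0.0015 for all genes, and in lean hosts they were -0.21, -0.19 and 0.13, beside 0.036. Several of these directions turned with GC content and length corrected. Then 5 ATF4 arm genes were higher and 2 lower in obese hosts, 5 ER arm genes higher and 5 lower, and 1 sensor higher and 1 lower, where 58% of all genes were called. The medians in obese hosts were then 0.27, 0.00097 and 0.074, beside -0.11 over all genes, so that those of both arms changed sign. In lean hosts the corrected counts were 2 higher and 2 lower in each arm, and 0 higher and 1 lower among the sensors, where 24.3% of all genes were called. Among the genes that had risen in lean hosts, Hspa5 and Dnajc3 were then not called, at 0.48 (edgeR adjusted p = 0.06) and 0.34 (edgeR adjusted p = 0.0805). The comparisons with time use the same midpoint libraries as the diet comparison at day 14, so a tumor that stands apart at day 14 enters both. Groups did not overlap in obese hosts for 7 ATF4 arm genes, 10 ER arm genes and 2 sensors, against 60.2% of all genes, and in lean hosts for 3, 5 and 1, against 33% of all genes.

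**Figure D3:**
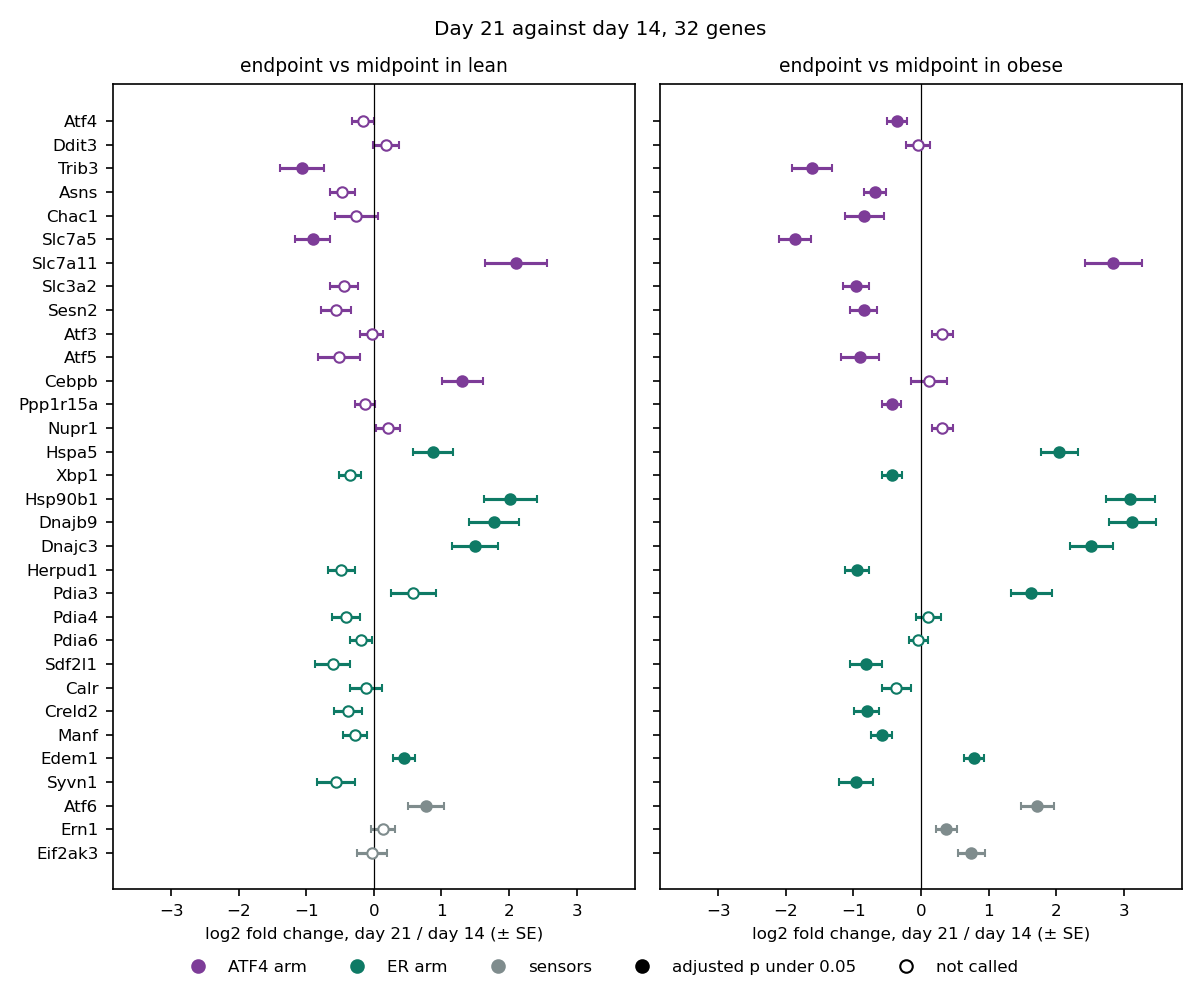
Log2 fold change from day 14 to day 21 (horizontal axis, ± SE) for the 32 tested genes in lean (left) and obese hosts (right), colored by arm; filled points passed an adjusted p of 0.05 in edgeR. Hsp90b1, Dnajb9, Dnajc3 and Slc7a11 stand farthest to the right in both hosts, at 2.02, 1.78, 1.50 and 2.10 in lean and 3.10, 3.13, 2.52 and 2.85 in obese hosts.

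Among the transporters of the ATF4 arm, the members moved in opposite directions. Slc7a5, whose endpoint levels were 115 to 148 CPM in lean and 117 to 169 CPM in obese tumors, fell in both hosts, below every midpoint tumor. For Slc7a5, the log2 fold change was -0.91 in lean hosts (SE 0.26, edgeR adjusted p = 0.0127) and -1.86 in obese hosts (SE 0.24, edgeR adjusted p = 1.75e-06). Slc7a11, the exchanger that brings in cystine for glutathione, was at 14.9, 5.31, 25.4 and 14.2 CPM in lean and 30.6, 9.23, 26.8, 37.6 and 30.5 CPM in obese endpoint tumors. It rose in both hosts, with overlap in lean hosts, where endpoint tumor 2 lay below midpoint tumor 3. For Slc7a11, the log2 fold change was 2.10 in lean hosts (SE 0.46, edgeR adjusted p = 0.00223) and 2.85 in obese hosts (SE 0.42, edgeR adjusted p = 8.96e-06). Neither call held with GC content and length corrected, at 0.80 (edgeR adjusted p = 0.152) and 0.46 (edgeR adjusted p = 0.281). Slc3a2, the shared heavy chain, was at 409, 272, 192 and 262 CPM in lean and 294, 286, 294, 285 and 226 CPM in obese endpoint tumors. In obese hosts these values lay below every midpoint tumor. For Slc3a2, the log2 fold change was -0.44 in lean hosts (SE 0.21, edgeR adjusted p = 0.112) and -0.97 in obese hosts (SE 0.19, edgeR adjusted p = 1.54e-04). Of these 3, only Slc3a2 was called in just 1 of the hosts, and the difference between hosts did not pass the interaction test.

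Of the enzymes and regulators, Trib3 was at 17.3, 9.34, 4.94 and 11.5 CPM in lean and 15.4, 13.1, 16.2, 14.2 and 11.1 CPM in obese endpoint tumors. Its endpoint tumors lay below the midpoint tumors in each host. For Trib3, the log2 fold change was -1.06 in lean hosts (SE 0.33, edgeR adjusted p = 0.0206) and -1.62 in obese hosts (SE 0.30, edgeR adjusted p = 7.53e-05). The call in lean hosts was lost without lean endpoint tumor 3 (edgeR adjusted p = 0.0683). Asns was at 538, 339, 279.6 and 403 CPM in lean and 453, 429.7, 491, 427 and 354 CPM in obese endpoint tumors. It lay below all midpoint tumors in obese hosts and overlapped with the midpoint tumors in lean hosts. For Asns, the log2 fold change was -0.47 in lean hosts (SE 0.18, edgeR adjusted p = 0.0574) and -0.68 in obese hosts (SE 0.16, edgeR adjusted p = 9.56e-04). Sesn2 was at 28.4, 40.8, 29.3 and 38.3 CPM in lean and 37.4, 41.2, 47.5, 46.3 and 43.6 CPM in obese endpoint tumors, with the same pattern of overlap. For Sesn2, the log2 fold change was -0.55 in lean hosts (SE 0.22, edgeR adjusted p = 0.0608) and -0.85 in obese hosts (SE 0.20, edgeR adjusted p = 7.51e-04). Chac1 was at 7.98, 9.10, 4.04 and 6.05 CPM in lean and 5.35, 5.37, 9.09, 8.41 and 6.74 CPM in obese endpoint tumors, with overlap between the days in both hosts. For Chac1, the log2 fold change was -0.26 in lean hosts (SE 0.32, edgeR adjusted p = 0.554) and -0.84 in obese hosts (SE 0.29, edgeR adjusted p = 0.0141). Atf4 was at 361, 355, 272 and 411 CPM in lean and 419, 374, 416, 389 and 309.9 CPM in obese endpoint tumors, also with overlap in both hosts. For Atf4, the log2 fold change was -0.16 in lean hosts (SE 0.17, edgeR adjusted p = 0.473) and -0.36 in obese hosts (SE 0.15, edgeR adjusted p = 0.0377). With GC content and length corrected, the direction in obese hosts turned for Atf4, called higher at 0.51 (edgeR adjusted p = 0.00175), and for Chac1 and Sesn2, not called at 0.31 (edgeR adjusted p = 0.26) and 0.062 (edgeR adjusted p = 0.691). In this arm and in obese hosts, the calls for Chac1 and Atf4 were the ones that leaving out 1 tumor could end. The call for Chac1 was lost without obese midpoint tumor 2 or 3 (edgeR adjusted p = 0.0521 and 0.0514). That for Atf4 was lost without obese midpoint tumor 2 or 3, lean endpoint tumor 1 or obese endpoint tumor 2, 4 or 5 (edgeR adjusted p from 0.0585 to 0.105).

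Among the transcription factors, Ddit3 was at 19.1, 13.1, 11.98 and 11.8 CPM in lean and 11.7, 12.7, 12.1, 13.6 and 10.5 CPM in obese endpoint tumors. Its highest value of all 18 libraries was in lean endpoint tumor 1, and the other 3 lean tumors lay inside the obese range. For Ddit3, the log2 fold change was 0.19 in lean hosts (SE 0.19, edgeR adjusted p = 0.459) and -0.046 in obese hosts (SE 0.17, edgeR adjusted p = 0.817). Cebpb was at 115, 57.4, 50.3 and 41.1 CPM in lean and 44.2, 36.3, 43.2, 52.8 and 41.2 CPM in obese endpoint tumors, above every midpoint tumor in lean hosts and overlapping in obese hosts. For Cebpb, the log2 fold change was 1.31 in lean hosts (SE 0.31, edgeR adjusted p = 0.0037) and 0.12 in obese hosts (SE 0.27, edgeR adjusted p = 0.703). As fitted, it rose in lean hosts and was not called in obese hosts, and its interaction with diet did not pass the test. Atf5 and Ppp1r15a fell in obese hosts, by 0.91 (SE 0.28, edgeR adjusted p = 0.00681) and 0.44 (SE 0.13, edgeR adjusted p = 0.0066) on the log2 scale. Both turned with GC content and length corrected, Ppp1r15a to a higher call at 0.24 (edgeR adjusted p = 0.0492) and Atf5 to 0.19 (edgeR adjusted p = 0.46), not called. In lean hosts they were not called as fitted, at -0.51 (SE 0.31) and -0.13 (SE 0.15). As fitted, Atf3 and Nupr1 were called in neither host, at -0.033 (SE 0.17) and 0.21 (SE 0.17) in lean and 0.31 (SE 0.16) and 0.31 (SE 0.16) in obese hosts. With GC content and length corrected, Nupr1 was called higher, at 0.53 (edgeR adjusted p = 0.0216) in lean and 0.89 (edgeR adjusted p = 2.73e-05) in obese hosts. Atf3 and Cebpb were then called higher in obese hosts, at 0.42 (edgeR adjusted p = 0.00927) and 0.68 (edgeR adjusted p = 0.0266). Of 16 immediate early genes over the same days, 3 (18.8%) were higher and 0 lower in lean hosts. In obese hosts 8 (50%) were higher and 0 lower. Over all genes 21.4% were higher and 9.5% lower in lean hosts, and 37.8% higher and 36.1% lower in obese hosts. The summed level of the immediate early genes was 2252 to 2634 CPM in lean and 2306 to 3334 CPM in obese endpoint tumors, and their part in the changes was not tested.

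Markers of other cells were called over the same days too, where 30.9% of all genes were called in lean hosts and 73.9% in obese hosts. Of pan-leukocyte markers 55.6% were called in lean and 77.8% in obese hosts. In that order, the shares were 13.3% and 20% for macrophage and monocyte and 37.5% and 62.5% for T and NK cell markers. They were 70% and 90% for fibroblast and 28.6% and 57.1% for plasma and B cell markers. Endothelial markers stood at 42.9% and 42.9%, and neutrophil markers at 20% and 20%. Of 9 pan-leukocyte markers, 0 were higher and 5 lower in lean hosts and 3 higher and 4 lower in obese hosts, with sums of 115 to 174 CPM in lean and 89.5 to 318 CPM in obese endpoint tumors. Of 15 macrophage and monocyte markers, 1 was higher and 1 lower in lean hosts and 3 higher and 0 lower in obese hosts, with endpoint sums of 253 to 432 and 141 to 758 CPM. Of 8 tested T and NK cell markers, 0 were higher and 3 lower in lean hosts and 0 higher and 5 lower in obese hosts. Their sums were 5.82 to 9.51 and 4.35 to 11.997 CPM in lean and obese midpoint tumors and 1.92 to 4.09 and 2.45 to 6.19 CPM at endpoint. Of 10 fibroblast markers, 4 were higher and 3 lower in lean hosts and 5 higher and 4 lower in obese hosts. Their sums were 2077 to 2509 and 1254 to 2770.0 CPM at midpoint and 1684 to 2531 and 1723 to 2874 CPM at endpoint. Col3a1, Pdgfra and Pdgfrb, with medians of 1687, 299 and 144 CPM over the 18 libraries, make up most of these sums. The medians of Col1a1, Col1a2, Dcn, Lum, Postn, Thy1 and Fap were 3.61, 3.62, 3.98, 1.19, 1.59, 1.23 and 0.0951 CPM. Of 7 tested plasma and B cell markers, 0 were higher and 2 lower in lean hosts and 1 higher and 3 lower in obese hosts, with endpoint sums of 268 to 404 and 311 to 390.3 CPM. Endothelial markers, 7 tested, were 0 higher and 3 lower in each host, and of 5 tested neutrophil markers 1 was higher and 0 lower in each host. None of these lists had a marker at 0 in all 18 libraries. Among 7 adipocyte markers, Adrb3 was at 0 in all 18 libraries and 2 were tested. In each host 1 of these 2 was higher and 1 lower, so that 100% were called. The sum of the 7 was 18.9 to 79.4 CPM in lean and 10.7 to 17.7 CPM in obese endpoint tumors. At midpoint it was 5.45 to 9.66 and 3.87 to 8.29 CPM. The part of all these markers in the changes with time was not tested.

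Hsp90b1, Dnajb9, Dnajc3 and Hspa5 had the largest increases of the ER arm with time. Hsp90b1 was at 819, 194, 503 and 574 CPM in lean and 645, 408, 526, 729 and 720.1 CPM in obese endpoint tumors, above every midpoint tumor of the same host. For Hsp90b1, the log2 fold change was 2.02 in lean hosts (SE 0.39, edgeR adjusted p = 8.21e-04) and 3.10 in obese hosts (SE 0.36, edgeR adjusted p = 8.56e-07). Dnajb9 was at 67.4, 28.2, 49.7 and 40.5 CPM in lean and 47.5, 38.6, 49.01, 63.4 and 45.3 CPM in obese endpoint tumors, again without overlap. For Dnajb9, the log2 fold change was 1.78 in lean hosts (SE 0.37, edgeR adjusted p = 0.0014) and 3.13 in obese hosts (SE 0.35, edgeR adjusted p = 5.64e-07). Dnajc3 was at 124, 61.9, 121 and 112 CPM in lean and 118, 79.03, 96.97, 137 and 122 CPM in obese endpoint tumors, without overlap. For Dnajc3, the log2 fold change was 1.50 in lean hosts (SE 0.34, edgeR adjusted p = 0.00288) and 2.52 in obese hosts (SE 0.32, edgeR adjusted p = 1.61e-06). In all 3 of these, lean endpoint tumor 2 was the lowest endpoint library, and it still lay above the midpoint tumors. Hspa5 rose in both hosts, and in lean hosts endpoint tumor 2, at 844 CPM, lay below midpoint tumor 3, at 877 CPM. For Hspa5, the log2 fold change was 0.88 in lean hosts (SE 0.29, edgeR adjusted p = 0.0297) and 2.05 in obese hosts (SE 0.27, edgeR adjusted p = 2.70e-06). Its call in lean hosts was lost without lean midpoint tumor 1, 2 or 4 or lean endpoint tumor 1, 3 or 5 (edgeR adjusted p from 0.054 to 0.123). Pdia3 was at 655, 365, 391 and 400.2 CPM in lean and 406, 445, 457, 440.2 and 436 CPM in obese endpoint tumors. It was called in obese hosts alone, though the interaction did not pass the test. For Pdia3, the log2 fold change was 0.59 in lean hosts (SE 0.33, edgeR adjusted p = 0.172) and 1.63 in obese hosts (SE 0.30, edgeR adjusted p = 7.67e-05). Edem1 rose by 0.45 (SE 0.16, edgeR adjusted p = 0.0446) in lean and 0.78 (SE 0.15, edgeR adjusted p = 1.06e-04) in obese hosts, on the log2 scale. With GC content and length corrected, Edem1 was called lower in both hosts, at -0.48 (edgeR adjusted p = 0.0365) in lean and -1.06 (edgeR adjusted p = 5.68e-06) in obese hosts. The call for Edem1 in lean hosts was lost when any 1 of several tumors was left out. These were lean midpoint 1, 2 and 4, obese midpoint 3 and 5, lean endpoint 1, 2, 3 and 5, and obese endpoint 1 to 4 (edgeR adjusted p from 0.0515 to 0.191).

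The 6 ER arm members that fell with time were called in obese hosts alone. Herpud1 was at 92.6, 129, 82.3 and 91.9 CPM in lean and 91.2, 92.4, 93.97, 116 and 82.1 CPM in obese endpoint tumors, below every obese midpoint tumor. For Herpud1, the log2 fold change was -0.48 in lean hosts (SE 0.20, edgeR adjusted p = 0.0709) and -0.95 in obese hosts (SE 0.18, edgeR adjusted p = 1.03e-04). Creld2 was at 40.6, 34.7, 25.99 and 32.9 CPM in lean and 36.5, 36.1, 42.5, 29.3 and 26.2 CPM in obese endpoint tumors, without overlap in obese hosts. For Creld2, the log2 fold change was -0.38 in lean hosts (SE 0.20, edgeR adjusted p = 0.15) and -0.81 in obese hosts (SE 0.18, edgeR adjusted p = 5.96e-04). Syvn1 was at 12.1, 37.5, 35.2 and 32.03 CPM in lean and 32.03, 35.6, 32.1, 29.2 and 42.3 CPM in obese endpoint tumors, also without overlap in obese hosts. For Syvn1, the log2 fold change was -0.56 in lean hosts (SE 0.28, edgeR adjusted p = 0.13) and -0.97 in obese hosts (SE 0.25, edgeR adjusted p = 0.00183). In lean hosts all 3 overlapped between the days, and Syvn1 was lowest of all libraries in lean endpoint tumor 1. Xbp1 itself was at 160.1, 155, 113 and 121 CPM in lean and 130.2, 146, 149, 162 and 113 CPM in obese endpoint tumors, with overlap in both hosts. For Xbp1, the log2 fold change was -0.35 in lean hosts (SE 0.16, edgeR adjusted p = 0.097) and -0.43 in obese hosts (SE 0.14, edgeR adjusted p = 0.0111). Manf and Sdf2l1 fell in obese hosts by 0.58 (SE 0.15, edgeR adjusted p = 0.00215) and 0.81 (SE 0.23, edgeR adjusted p = 0.00365) on the log2 scale. Of the 6, Manf, Herpud1 and Xbp1 were also called lower with GC content and length corrected, Syvn1 was not called at -0.33 (edgeR adjusted p = 0.113), and Sdf2l1 and Creld2 turned, without a call, to 0.28 (edgeR adjusted p = 0.106) and 0.00097 (edgeR adjusted p = 0.996). As fitted, Pdia4, Pdia6 and Calr were called in neither host, at -0.41 (SE 0.20), -0.19 (SE 0.16) and -0.12 (SE 0.24) in lean and 0.11 (SE 0.18), -0.041 (SE 0.14) and -0.37 (SE 0.21) in obese hosts. With GC content and length corrected, Pdia6 was called lower, at -0.50 (edgeR adjusted p = 0.031) in lean and -0.75 (edgeR adjusted p = 2.12e-04) in obese hosts. As fitted, genes with an ERSE match stood on both sides: Hsp90b1, Hspa5 and Dnajc3 rose in obese hosts, Creld2 and Syvn1 fell, and Calr and Pdia6 were not called. Of the 6 tested ATF4 arm genes with a CARE match, as fitted, Slc7a11 rose, Asns, Chac1 and Trib3 fell, and Atf3 and Nupr1 were not called in obese hosts.

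Atf6 was at 196, 139, 189 and 213 CPM in lean and 229, 174, 212, 230.0 and 232 CPM in obese endpoint tumors. As fitted it rose in both hosts, without overlap. For Atf6, the log2 fold change was 0.78 in lean hosts (SE 0.26, edgeR adjusted p = 0.0325) and 1.72 in obese hosts (SE 0.24, edgeR adjusted p = 4.91e-06). With GC content and length corrected, Atf6 was called lower in both hosts, at -0.40 (edgeR adjusted p = 0.0409) in lean and -0.38 (edgeR adjusted p = 0.0136) in obese hosts. The call in lean hosts was lost without lean midpoint tumor 1, 2 or 4 or lean endpoint tumor 1, 3 or 5 (edgeR adjusted p from 0.0603 to 0.126). Eif2ak3 was at 32.2, 39.5, 39.5 and 34.1 CPM in lean and 35.3, 35.1, 36.6, 35.4 and 34.6 CPM in obese endpoint tumors. The endpoint tumors of obese hosts spanned only 34.6 to 36.6 CPM, all within the range of the lean midpoint tumors. For Eif2ak3, the log2 fold change was -0.025 in lean hosts (SE 0.22, edgeR adjusted p = 0.941) and 0.75 in obese hosts (SE 0.20, edgeR adjusted p = 0.00226). Ern1 was at 50.8, 42.6, 44.2 and 43.7 CPM in lean and 52.5, 44.4, 50.1, 48.3 and 64.9 CPM in obese endpoint tumors, with overlap in both hosts. For Ern1, the log2 fold change was 0.13 in lean hosts (SE 0.18, edgeR adjusted p = 0.573) and 0.38 in obese hosts (SE 0.16, edgeR adjusted p = 0.0401). The call for Ern1 in obese hosts was lost without obese midpoint tumor 1, 2 or 5 or obese endpoint tumor 1, 3 or 5 (edgeR adjusted p from 0.0522 to 0.122).

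GC content moved with the changes over time as well, with r across the 32 genes of -0.73 in obese and -0.57 in lean hosts, beside -0.68 and -0.56 across all 16122 tested genes with a GC value. Within the ER arm r was -0.83 and -0.85 across 15 genes, and within the ATF4 arm -0.57 and -0.29 across 14 genes. After the correction for GC content and length, of the 25 genes called in obese hosts, 11 kept their call and direction, 10 lost the call and 4 were called in the opposite direction. The 11 were the rising Dnajb9 at 1.92 (edgeR adjusted p = 6.12e-07), Pdia3 at 1.29 (edgeR adjusted p = 8.55e-05), Hspa5 at 1.25 (edgeR adjusted p = 4.42e-06), Hsp90b1 at 1.11 (edgeR adjusted p = 4.14e-05), Eif2ak3 at 0.66 (edgeR adjusted p = 0.00442) and Dnajc3 at 0.52 (edgeR adjusted p = 0.00168). The other 5 were the falling Manf at -1.28 (edgeR adjusted p = 1.33e-05), Slc7a5 at -1.08 (edgeR adjusted p = 1.06e-05), Asns at -0.96 (edgeR adjusted p = 7.30e-05), Herpud1 at -0.83 (edgeR adjusted p = 3.02e-04) and Xbp1 at -0.45 (edgeR adjusted p = 0.00587). The 4 with the opposite call were Atf4 at 0.51 (edgeR adjusted p = 0.00175) and Ppp1r15a at 0.24 (edgeR adjusted p = 0.0492), now higher, and Edem1 at -1.06 (edgeR adjusted p = 5.68e-06) and Atf6 at -0.38 (edgeR adjusted p = 0.0136), now lower. Among the 10 that lost the call were Slc7a11 at 0.46 (edgeR adjusted p = 0.281) and Trib3 at -0.43 (edgeR adjusted p = 0.157). In lean hosts, Cebpb at 1.28 (edgeR adjusted p = 0.00385), Dnajb9 at 1.10 (edgeR adjusted p = 0.00212), Hsp90b1 at 0.80 (edgeR adjusted p = 0.00849) and Slc7a5 at -0.54 (edgeR adjusted p = 0.0295) kept their calls. Edem1 and Atf6 again took the opposite direction, at -0.48 (edgeR adjusted p = 0.0365) and -0.40 (edgeR adjusted p = 0.0409). Called only after the correction were Asns, Nupr1 and Pdia6 in lean hosts and Atf3, Cebpb, Nupr1 and Pdia6 in obese hosts. Asns was lower in lean hosts, at -0.56 (edgeR adjusted p = 0.036). Which part of the GC trend is technical was not tested.

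**Figure D4:**
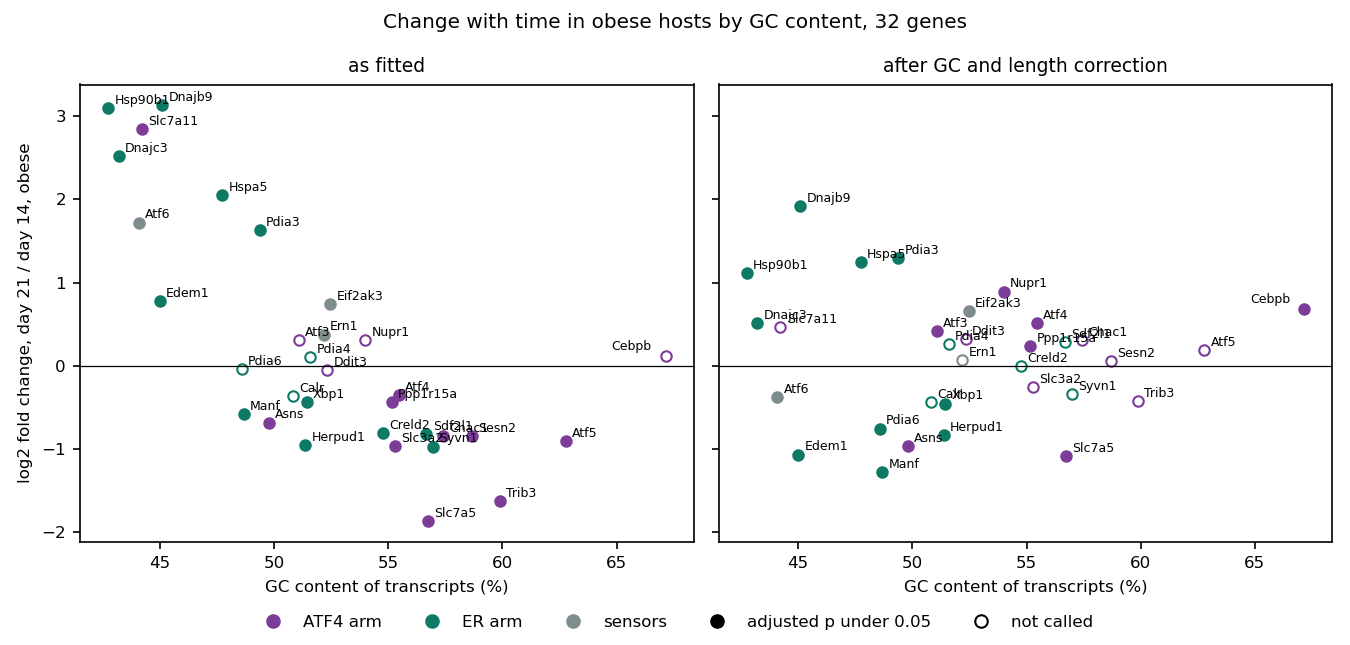
Log2 fold change from day 14 to day 21 in obese hosts against the GC content of each gene's transcripts, for the 32 tested genes, as fitted (left) and after the correction for GC content and length (right); filled points passed an adjusted p of 0.05 in edgeR. On the left, genes of low GC content such as Hsp90b1 (3.10) and Dnajb9 (3.13) lie high and Slc7a5 (-1.86) and Trib3 (-1.62) low, and on the right Dnajb9 remains highest, at 1.92.

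To set the arms against each other within a library, the mean log2 CPM of the 15 tested ER arm genes was taken from that of the 14 tested ATF4 arm genes, a difference in which the scaling of libraries cancels. It was -1.14, -1.51, -1.33 and -1.27 in the lean midpoint tumors and -1.18, 0.14, -0.22, -0.93 and -0.77 in the obese midpoint tumors, so obese tumor 1 lay inside the lean range and the other 4 lay above it. At day 21 it was -1.57, -1.55, -1.74 and -1.63 in lean and -1.56, -1.59, -1.45, -1.52 and -1.52 in obese tumors, below every midpoint library of the same host. The group means were -1.32 ± 0.15 (SD, n = 4), -0.59 ± 0.54 (n = 5), -1.63 ± 0.086 (n = 4) and -1.53 ± 0.053 (n = 5). In the fitted fold changes, the ATF4 arm mean minus the ER arm mean was 0.71 for obese against lean hosts at day 14, 0.10 at day 21, -0.31 for day 21 against day 14 in lean hosts, -0.91 in obese hosts and -0.61 for the interaction, described here without a test because the genes were chosen with earlier results known. With GC content and length corrected, the values at day 14, over time in lean hosts and over time in obese hosts became 0.24, 0.12 and -0.0016. Without obese midpoint tumors 2 and 3, a choice made after the data had been seen, the difference at day 14 was 0.34 and that over time in obese hosts -0.55.

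**Figure D5:**
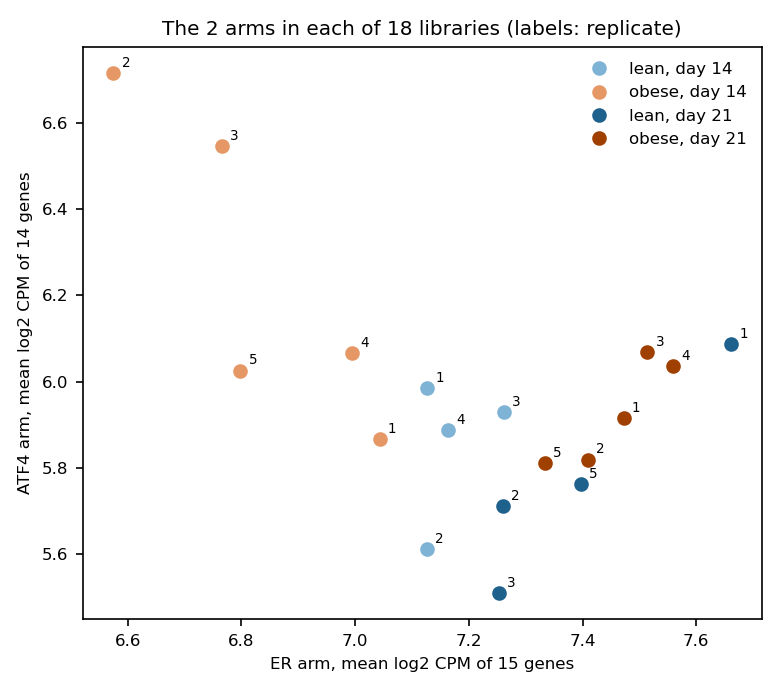
Mean log2 CPM of 14 ATF4 arm genes (vertical axis) against that of 15 ER arm genes (horizontal axis) in each of 18 libraries; numbers are replicates. Obese midpoint tumors 2 and 3 lie at the upper left, at 6.72 and 6.55 for the ATF4 arm and 6.57 and 6.77 for the ER arm, and the endpoint tumors lie to the right, at 7.25 to 7.66 for the ER arm.

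Other genes of the same pathways were taken from 2 lists of 30 ATF4 and eIF2 genes and 42 ER folding, export and degradation genes, of which 28 and 40 were tested. At day 14, 9 of the first list were higher and 5 lower in obese hosts, and 5 of the second were higher and 7 lower, with medians of 0.18 and -0.034. The shares called, 50% and 30%, stand beside 29.5% of all genes, the 32.1% and 12.5% higher beside 16.7%, and the 17.9% and 17.5% lower beside 12.8%. Higher were the glycine transporter Slc6a9 at 0.96, the translation repressor Eif4ebp1 at 0.85 and mitochondrial Pck2 at 0.83, and lower were the eIF2 alpha subunit Eif2s1 at -1.43, the tRNA exporter Xpot at -0.75 and the amino acid sensing kinase Eif2ak4 at -0.64 (log2 fold changes). In the ER list, the degradation lectin Edem2 at 0.71, Mydgf at 0.66 and the translocon subunit Sec61a1 at 0.41 were higher, and the lectin chaperone Canx at -1.21, the translocon-associated Ssr3 at -1.29 and the oxidase Ero1lb at -0.93 were lower. After the correction for GC content and length, Slc6a9, Eif4ebp1, Eif2s1, Edem2, Sec61a1 and Canx were still called in the same direction, at 0.58, 0.76, -0.87, 0.90, 0.47 and -0.52. Most calls of the lists were lost: 4 held and 10 were lost in the first, and 4 held and 8 were lost in the second. With the correction 4 genes of the first list were higher and 1 lower, and 11 of the second were higher and 1 lower. The medians were then 0.15 and 0.19, beside 0.074 over all genes, and 12.5% of all genes were called. At day 21 edgeR called 0 of 28 and 0 of 40 between hosts, with 6 and 0 at an unadjusted p under 0.05.

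Over time in obese hosts, 8 genes of the first list rose and 13 fell, and 16 of the second rose and 16 fell, with medians of -0.31 and 0.025. The shares called, 75% and 80%, stand beside 73.9% of all genes. The amino acid transporter Slc38a2 rose by 1.87, the ATF4 partner Cebpg by 2.34 and the double-stranded RNA-dependent kinase Eif2ak2 (PKR) by 2.93 on the log2 scale, while the proline synthesis enzyme Aldh18a1 was at -0.96, Slc6a9 at -1.32 and the glutamine transporter Slc1a5 at -0.85. In the ER list Hspa13 rose by 2.84, Edem3 by 2.95 and Canx by 2.73, while Sec61a1 was at -0.94, the membrane-bound factor Creb3 at -1.36 and the thioredoxin-domain protein Txndc5 at -1.09. All of these named genes kept their direction and call with GC content and length corrected except Slc38a2, which went to 0.020. Cebpg, Eif2ak2, Edem3 and Txndc5 were then at 1.45, 1.35, 1.82 and -1.16. The lists as a whole held less well. With the correction 5 genes of the first list were higher and 9 lower, with a median of -0.14. In the second list 8 were higher and 21 lower, with a median of -0.42. Calls lost were 9 and 8, and 0 and 4 were made in the opposite direction, where 58% of all genes were called. In lean hosts 3 rose and 5 fell in the first list and 10 rose and 6 fell in the second, with medians of -0.18 and -0.0023. The shares called, 28.6% and 40%, stand beside 30.9% of all genes. Rising were Slc38a2 (1.29), Cebpg (1.39), Eif2ak2 (1.68), Edem3 (2.22), Hspa13 (1.99) and Crebrf (1.54), and falling were Aldh18a1 (-0.68), Pck2 (-0.97), the proline synthesis enzyme Pycr1 (-0.86), the protease Mbtps1 (-0.65), which cleaves ATF6, Sec61b (-0.68) and the degradation channel protein Derl1 (-0.49). With GC content and length corrected, 3 genes of the first list were higher and 4 lower in lean hosts. In the second list 4 were then higher and 10 lower, so that more fell than rose. The corrected medians were -0.16 and -0.23, and 24.3% of all genes were called.

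Positions are those of the deposited table, whose build is named as mm10 in the submitters' processing notes: Atf4 lies at chr15:80255184-80257540 and Slc7a5 at chr8:121881150-121907694, Hspa5 at chr2:34771970-34776531 and Hsp90b1 at chr10:86690209-86705509, Atf6 at chr1:170704674-170867771 and Eif2ak3 at chr6:70844515-70905245. On chromosomes 1 to 4 lean endpoint tumor 4 does hold counts, and in a fit of those chromosomes with all 19 libraries all 17 calls of members there were made in the same direction. This tumor enters the group means of only the 5 calls over time in lean hosts. The 5 diet calls at midpoint and the 7 calls over time in obese hosts compare groups without it, so their direction could hardly change.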

How the data were processed

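RNA-seq counts of E0771 cells sorted from 19 tumors were used. The authors deposited whole-number counts per gene, not normalized, with Ensembl identifiers, positions and lengths per the file headers; endpoint columns hold the same raw counts. TopHat, DESeq and mm10 are named in the submitters' processing notes. The counter, its strand setting and the annotation were not given in the sources used here, so genes that overlap others are uncertain. Symbols came from GENCODE, matching 37607 of 39017 genes. The members and lists were chosen with earlier results of these data known.

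In R 4.3.3, edgeR 4.0.16 kept 16352 genes (filterByExpr), scaled libraries by TMM and fitted 1 mean per group to 18 libraries. Contrasts were tested over all genes by the quasi-likelihood test, with adjustment after Benjamini and Hochberg at 0.05. CPM, RPKM and log2 CPM (prior count 2) were computed here from the deposited counts. Standard errors come from the fold change and F. Tumors are the replicates. GC content is the mean over a gene's GENCODE transcripts, and its correction used splines with 5 degrees of freedom for GC content and log length as an offset. Named genes were all 33 members, with every library's value for the centers of the arms, the sensors and the up to 3 per arm and direction with the smallest p, and up to 3 genes per other list. Alternatives were RLE, other filters, DESeq2 1.42.0, limma-voom (limma 3.58.1), the compared groups alone, a replicate block, all 19 libraries and each tumor left out. In simulated data for obese against lean at midpoint, 98.5% of 200 changed genes (of 15909) were recovered. That simulation gave all genes the same spread, drew changed genes from well-expressed ones and held no GC trend. It therefore does not say what share of changes the real comparison finds.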

Additional observations from a re-analysis of the deposited data

Results flagged for a closer look

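A tumor stood far from the others of its group in 9 of 140 checks of single genes and arm means, 6.43%, where chance gives about 1 in 20. The measure is the gap to the nearest tumor divided by the range of the group, in log2 CPM. At midpoint, Atf4 was low in lean tumor 2, at 321 CPM with a gap of 0.833, Ddit3 was high in lean tumor 3, at 13.99 CPM with a gap of 0.874, and Calr was low in obese tumor 3, at 996 CPM with a gap of 0.759. At endpoint in lean hosts, Pdia3 was high and Syvn1 low in tumor 1, at 655 and 12.1 CPM with gaps of 0.843 and 0.86, and Dnajc3 was low in tumor 2, at 61.9 CPM with a gap of 0.844. Lean endpoint tumor 1 also had the highest share of mitochondrial counts, 44.7%. At endpoint in obese hosts, Slc7a11 and Edem1 were low in tumor 2, at 9.23 and 183 CPM with gaps of 0.76 and 0.821, and Slc3a2 was low in tumor 5, at 226 CPM with a gap of 0.887. What sets these tumors apart was not tested.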

How the results depend on the processing

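In the diet comparison at midpoint, the count of ATF4 arm calls (3) was 7 with limma-voom, and 0 with the compared groups alone, with all 19 libraries and without obese midpoint tumors 2 and 3; the ER arm count (4) was 7 with a filter of 5 CPM, 7 with DESeq2, 8 with limma-voom and 0 under the same 3 settings. Over time in lean hosts, the ATF4 count (4) was 0 with all 19 libraries and 8 without the 2 tumors, and the ER count (5) was 3 without a filter, 8 with DESeq2 and with limma-voom, 0 with all 19 libraries and 11 without the 2 tumors. Over time in obese hosts all 19 libraries gave 3 and 4 in place of 10 and 12. For the interaction the ATF4 count (0) was 2 with limma-voom and the ER count (0) was 2 with DESeq2 and 6 with limma-voom. The share called over all genes moved too. From 29.5% at midpoint it went to 51.7% with limma-voom, 49.7% with the 5 CPM filter, 43% with DESeq2 and 0% under the 3 settings with no calls. From 30.9% over time in lean hosts it went to 17.2% without a filter, 37.4% with DESeq2, 44.7% with limma-voom and without the 2 tumors, and 3.23% with all 19 libraries. From 73.9% in obese hosts it went to 25.7% with all 19 libraries, and from 0% for the interaction to 13.4% with DESeq2 and 31.3% with limma-voom. With all 19 libraries, the zeros of the short library enter the spread.

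The arm difference with GC content and length corrected was 0.24 at midpoint, 0.12 and -0.0016 over time in lean and obese hosts and -0.13 for the interaction, and without the 2 tumors 0.34, -0.55 (over time in obese hosts) and -0.24 (interaction). Genes with the opposite sign under that correction were, in lean hosts, Edem1 (-0.48) and Atf6 (-0.40), and in obese hosts Atf4 (0.51), Chac1 (0.31), Sesn2 (0.062), Atf5 (0.19), Ppp1r15a (0.24), Sdf2l1 (0.28), Creld2 (0.00097), Edem1 (-1.06) and Atf6 (-0.38); the cause was not tested. Of 44 single calls, 42 held with RLE, 37 without a filter, 43 with DESeq2 and 20 with the correction.

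With each tumor left out in turn, the counts of calls ranged, for the ATF4 and ER arms, from 0 to 7 and 0 to 10 at midpoint, 3 to 7 and 3 to 8 over time in lean hosts, 8 to 11 and 12 to 13 in obese hosts, and 0 to 2 and 0 to 5 for the interaction. The arm difference ranged from 0.531 to 0.862 at midpoint, -0.367 to -0.248 over time in lean hosts, -1.07 to -0.736 in obese hosts and -0.762 to -0.43 for the interaction.

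Same-numbered tumors of different groups deviated from their group means with r of -0.403 to 0.551, over 0.1 in 6 of 24 pairs. Differently numbered tumors were not set beside them, so whether the numbers pair the tumors was not settled. With the replicate number as a block, 37 of 44 calls held, and the ER arm count over time in lean hosts was 3.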
